A study of Mus musculus with 30 samples.

Results

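Iron enters most cells as an iron-transferrin complex, and what is not used at once is stored in ferritin. The genes described here are 10 that handle this traffic: Tfrc, Steap3 and Slc11a2 of uptake, Fth1, Ftl1 and Ncoa4 of storage, Slc40a1 of export, Aco1 and Ireb2 of regulation, and Hmox1 of heme breakdown. They were found by symbol among the 53974 gene rows of the transcript table, and all 10 were also present in the explant table. The 10 names were put together with earlier results of these data known: Tfrc was chosen by its measured TPM, as a gene that fell most with crotonate in cultured cells, so for every member the comparison of crotonate with control in those cells is a description without a test.

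The cells were neural stem and progenitor cells (NSPCs) from the forebrain of C57BL/6 mouse embryos at E13.5 (a day count of embryonic development), grown in a medium with epidermal and fibroblast growth factors and the B27 and N2 supplements. All 3 NSPC groups were kept for 24 h, one with the solvent DMSO (control), one with crotonate at 10 mM, an unsaturated short fatty acid that cells turn into crotonyl-CoA, and one with MS-275 (entinostat) at 1 µM, which blocks the class I histone deacetylases. Each had 4 RNA libraries, called biological replicates by the study, from early passages that the labels do not tell apart. One further RNA library came from untreated C57BL/6 forebrain of the same day. Forebrain explants of the ICR strain gave 3 control and 3 crotonate libraries, whose dose and time are not stated in the sources used here and whose results are held as 1 deposited comparison. Peaks of crotonylated lysine (Kcr) and acetylated lysine (Kac) came from 1 NSPC library per mark and treatment, and the forebrain gave 1 library of H3K9cr and 1 of H3K9ac, the crotonyl and acetyl marks on lysine 9 of histone H3.

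Between 13444 and 14854 genes reached 1 TPM (transcript level per length, scaled to a fixed library sum) in an NSPC library; the read depth behind these values is unknown. All 12 fixed markers of neural stem and progenitor cells, among them Nes, Sox2 and Fabp7, were above 1 TPM in the NSPC groups. Of 8 forebrain markers, Emx1 and Dlx2 stayed under 1 TPM in every control library. Globin-led erythroid markers summed to 0.409 to 0.781 TPM in the control NSPCs and to 11918 TPM in the forebrain library, so red-cell RNA was plentiful in the tissue and near absent in the cultures. In bulk RNA, fewer cells of a type and less RNA per cell cannot be told apart.

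As background, the transferrin receptor carries transferrin-bound iron into endosomes, where the reductase Steap3 converts it to the ferrous form and the transporter Slc11a2 (DMT1) passes it into the cytosol. Ferritin is a shell of heavy chains (Fth1), which oxidise iron for storage, and light chains (Ftl1), which help to build the mineral core. The regulatory proteins made by Aco1 (IRP1) and Ireb2 (IRP2) bind stem-loops in mRNAs when iron is scarce, protecting Tfrc mRNA from decay and blocking translation of the ferritins. Transcript levels therefore show one layer of this system, and no protein or iron was measured.

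Levels per length can be set side by side between genes. In control NSPCs the order by mean level was Ftl1 at 1762 TPM, Fth1 at 1301 TPM, Ncoa4 at 90.5 TPM, Tfrc at 86.3 TPM, Aco1 at 63.7 TPM, Ireb2 at 57.5 TPM, Hmox1 at 32.6 TPM, Slc11a2 at 22.7 TPM, Steap3 at 1.82 TPM and Slc40a1 at 0.150 TPM. The library ranges of Ncoa4 and Tfrc overlapped, as did those of Tfrc and Aco1, while all other neighbours were separate. With crotonate Tfrc stood in the sixth place, where its range overlapped that of Hmox1. With MS-275 Fth1 passed Ftl1, and the other neighbours that overlapped were Tfrc with Ireb2 and Aco1 with Hmox1.

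**Figure D1:**
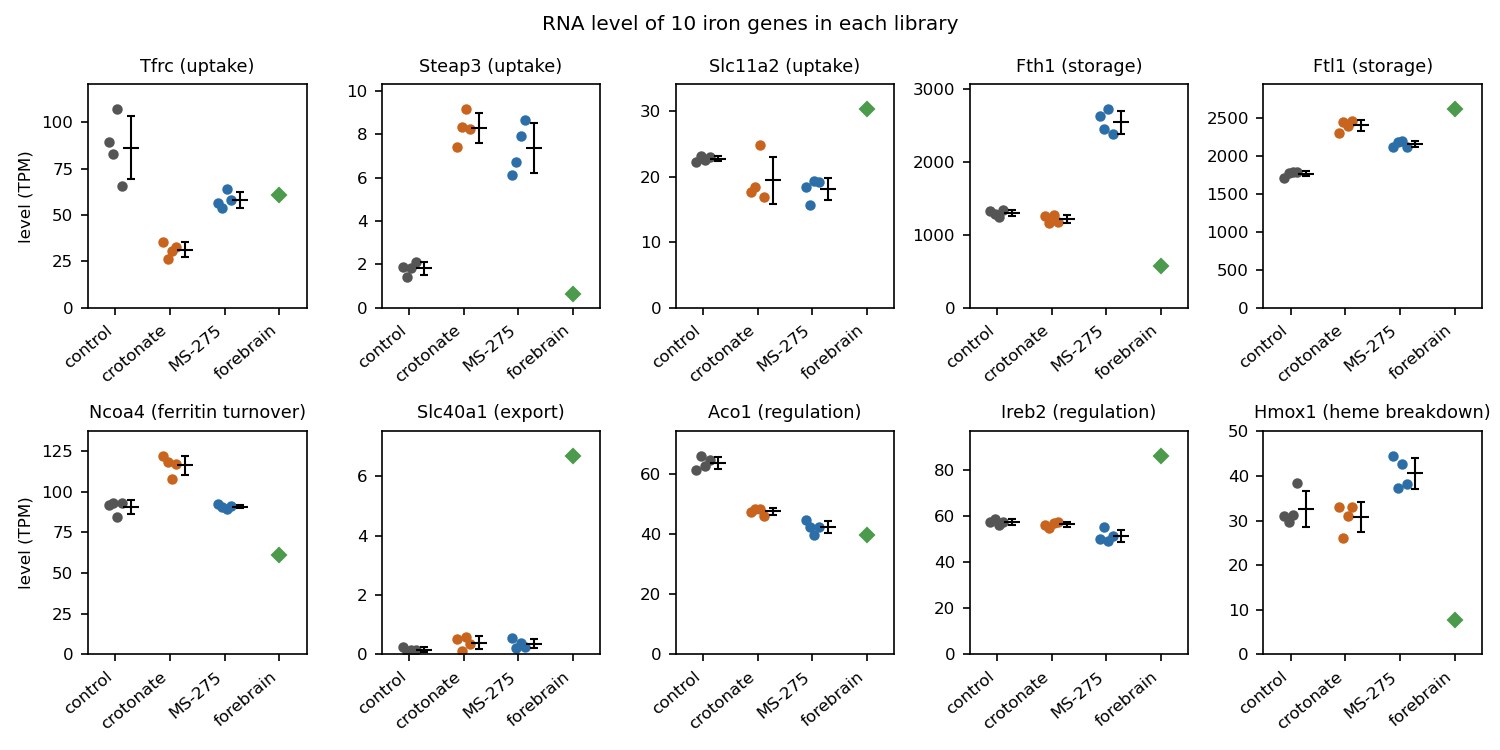
TPM of each gene (vertical axes, linear and starting at 0) in the 4 control, 4 crotonate and 4 MS-275 NSPC libraries and the 1 forebrain library; dots are libraries in replicate order, and the black bar beside them is the mean with 1 SD. Tfrc is lowest with crotonate (26.2 to 35.5 TPM), Steap3 is at 1.41 to 2.13 TPM in the control and at 6.11 TPM or more in all 8 treated libraries, and Fth1 is at 2379 TPM or more in the MS-275 libraries alone.

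Tfrc, the receptor through which most cells take up transferrin iron, stood at 89.6, 82.8, 107 and 65.7 TPM in the 4 control libraries. In the crotonate libraries it stood at 35.5, 26.2, 30.4 and 33.0 TPM. In the MS-275 libraries it stood at 56.4, 53.8, 64.0 and 58.2 TPM. The 3 groups did not overlap: crotonate was lowest, MS-275 lay between, and the lowest control library was only just above the highest MS-275 library. On the log2(TPM + 1) scale the difference was -1.42 for crotonate minus control (SE 0.13, 95% interval -1.70 to -1.14), with a crotonate mean 0.362 times that of the control. For MS-275 minus control it was -0.54 (SE 0.13), a ratio of 0.673, and for MS-275 minus crotonate 0.88 (SE 0.13), a ratio of 1.86. No p is given for Tfrc in these comparisons, because each shares libraries with the one that singled it out.

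The place of Tfrc in the order of falls depends on which genes are counted. Of all 14857 tested genes, 9 had a lower log2 difference, crotonate minus control, and 4 of these passed the limma test. Chac1 was among these 4, at -1.68 from a control mean of 3.91 TPM. Among genes that passed it with at least 5 TPM in the control, 2 predicted genes lay below Tfrc, Gm15452 at -3.18 (SE 1.06) and Gm28221 at -3.03 (SE 1.02). Just above Tfrc followed Gm11688 at -1.28, Gm4430 at -1.13 and Aven, an inhibitor of apoptosis, at -1.12 (SE 0.17). Genes at that level that lay lower without passing the test included Hist2h2aa2, a histone gene, at -2.20. These ranks restate the values by which Tfrc was chosen.

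Tfrc lies at chr16:32608896-32632794 (GRCm38), with a second RefSeq start at 32609122. Kcr and Kac peaks of control and of crotonate-treated NSPCs lay on both sides of the first start, so the 250 bases before each start are shown, 5′ to 3′ on the plus strand from RefSeq (GRCm38.p6), with matches to the motifs listed further on in capitals.
Tfrc, first start, chr16:32608646-32608895: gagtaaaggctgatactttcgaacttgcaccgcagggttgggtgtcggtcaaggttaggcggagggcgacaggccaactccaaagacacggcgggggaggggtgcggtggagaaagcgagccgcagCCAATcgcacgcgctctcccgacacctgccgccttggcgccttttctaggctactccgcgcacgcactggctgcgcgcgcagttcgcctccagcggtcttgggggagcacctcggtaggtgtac
Tfrc, second start, chr16:32608872-32609121: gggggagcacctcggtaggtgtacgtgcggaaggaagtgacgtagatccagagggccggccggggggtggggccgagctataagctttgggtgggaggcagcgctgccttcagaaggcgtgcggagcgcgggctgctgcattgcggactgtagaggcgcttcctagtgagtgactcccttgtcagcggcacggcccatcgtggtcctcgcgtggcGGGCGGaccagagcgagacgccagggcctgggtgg
The first stretch has 64.8% G and C with 25 CpG, and the second 68.0% with 23 CpG, against medians of 52.4% and 6.0 over 32851 RefSeq promoters. A CCAAT box begins 124 bases before the first start, and a GGGCGG box 35 bases before the second.

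Steap3, the endosomal iron reductase that acts after Tfrc, was higher with both compounds. It stood at 1.90, 1.41, 1.82 and 2.13 TPM in control libraries, at 7.42, 8.34, 9.15 and 8.22 TPM with crotonate, and at 6.11, 6.72, 7.94 and 8.65 TPM with MS-275. Every treated library was above every control library, and the treated groups overlapped. Steap3 was higher by 1.72 (SE 0.12) on the log2 scale with crotonate, a ratio of means of 4.56. With MS-275 it was 1.56 (SE 0.12), a ratio of 4.05, at an adjusted p of 1.4e-07 in limma. The treatments differed by -0.16 (95% interval -0.41 to 0.09, adjusted p 0.286 in limma), so a difference in either direction within that interval was not resolved. From a level this low the size depends on the pseudocount: with 0.1 in place of 1 the crotonate difference was 2.14 and the MS-275 difference 1.96.

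Of 4 RefSeq starts of Steap3 (chr1:120226414-120271081, minus strand), 1 inside the gene lay beside all of its peaks. The 250 bases before it are shown for that reason, read on the minus strand.
Steap3, chr1:120265287-120265536: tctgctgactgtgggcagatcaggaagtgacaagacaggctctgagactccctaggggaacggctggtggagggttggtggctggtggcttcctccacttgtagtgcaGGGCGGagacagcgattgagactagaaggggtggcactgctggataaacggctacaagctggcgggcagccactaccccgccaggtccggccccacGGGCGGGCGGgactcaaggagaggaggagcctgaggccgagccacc
Of these bases 64.0% are G or C, and 3 GGGCGG boxes (either strand) begin 142, 46 and 42 bases before the start, the last pair overlapping. A Kcr peak touched this stretch in the control and MS-275 lists and a Kac peak in the crotonate list.

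Slc11a2, which moves ferrous iron out of the endosome (chr15:100387898-100424209), stood at 22.3, 23.1, 22.6 and 23.0 TPM in control libraries. With crotonate it stood at 17.7, 18.5, 24.8 and 16.9 TPM, and with MS-275 at 18.4, 15.7, 19.4 and 19.2 TPM. Crotonate library 3 was the highest of all 12, so the crotonate group straddled the control, while all MS-275 libraries lay below it. Slc11a2 differed from the control by -0.23 (SE 0.10) on the log2 scale with crotonate and -0.31 (SE 0.10) with MS-275, the latter at an adjusted p of 0.0181 in limma. Without MS-275 library 2 that difference was -0.25 and its adjusted p 0.0584, which no longer passed. The treatments differed by -0.08 (95% interval -0.31 to 0.14, adjusted p 0.538 in limma), and by 0.03 without crotonate library 3.

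The ferritin chains responded differently to the 2 compounds. Fth1, the heavy chain that oxidises iron, stood at 1325, 1287, 1251 and 1339 TPM in control libraries and at 1265, 1170, 1275 and 1176 TPM with crotonate. With MS-275 it stood at 2631, 2449, 2722 and 2379 TPM, above every other NSPC library by a wide gap. Fth1 differed from the control by -0.09 (SE 0.05, log2) with crotonate and 0.97 (SE 0.05) with MS-275, 1.96 times the control mean (adjusted p 3.3e-09 in limma). MS-275 exceeded crotonate by 1.06 (SE 0.05, adjusted p 1.9e-08 in limma).

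Ftl1, the light chain, stood at 1712, 1768, 1786 and 1783 TPM in control libraries. It reached 2300, 2443, 2386 and 2461 TPM with crotonate and 2119, 2180, 2193 and 2108 TPM with MS-275. The 3 groups did not overlap, and here crotonate was highest. Ftl1 was higher by 0.44 (SE 0.03, log2) with crotonate and by 0.29 (SE 0.03, adjusted p 1.7e-06 in limma) with MS-275. The treatments differed by -0.16 (SE 0.03, adjusted p 0.000634 in limma), with all 4 MS-275 libraries below all 4 crotonate libraries.

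The ratio of Fth1 to Ftl1 TPM within a library, chosen after these values were seen, does not depend on how libraries are scaled. It was 0.774, 0.728, 0.701 and 0.751 in the control, 0.550, 0.479, 0.534 and 0.478 with crotonate, and 1.24, 1.12, 1.24 and 1.13 with MS-275. Crotonate libraries thus held fewer heavy-chain transcripts per light-chain transcript than the control and MS-275 libraries more, with no overlap. The means were 0.738 ± 0.0315, 0.510 ± 0.0374 and 1.18 ± 0.0665 (SD, n = 4). Since the ratio was formed after both genes were seen to move apart, it is given without a test. The forebrain library was at 0.221, outside all 3 groups. The 14 other genes and pseudogenes whose symbols begin with Fth or Ftl, whose reads can be mistaken for those of Fth1 or Ftl1, each stayed at or under 3.01 TPM in all 13 libraries. Copies under other names were not searched, and these low levels do not show how shared reads were assigned.

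**Figure D2:**
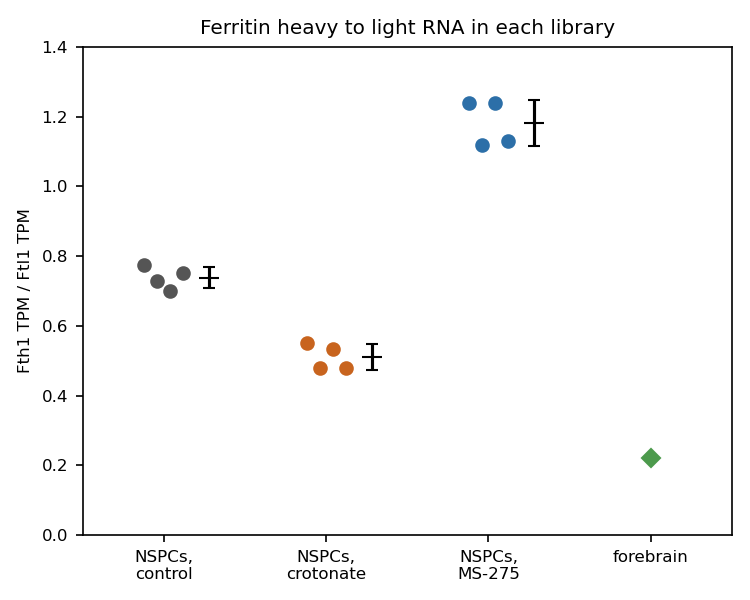
Ratio of Fth1 TPM to Ftl1 TPM (vertical axis, from 0) in each NSPC library and the forebrain library; dots are libraries and the black bar is the mean with 1 SD over 4. The control libraries lie at 0.701 to 0.774, crotonate at 0.478 to 0.550 and MS-275 at 1.12 to 1.24.

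Markers of other lineages moved with Fth1. The summed level of 7 oligodendrocyte-lineage markers, led by Olig1, was 1686 to 1885 TPM in the control, 1848 to 2099 TPM with crotonate and 2844 to 3123 TPM with MS-275. Of these markers 6 were tested and 3 rose with MS-275; the late marker Mag stayed under 1 TPM in every library and none was at 0 throughout. The summed neural stem and progenitor markers were 9745 to 10283, 9142 to 10041 and 13725 to 14386 TPM in the same order. Most of that sum is Vim, which went from a mean of 3671 TPM in the control to 5970 TPM with MS-275, and Fabp7, which went from 4946 to 6898 TPM. Of the 12 stem and progenitor markers 4 rose and 4 fell with MS-275 (median log2 difference -0.00): Nes (-0.53), Pax6 (-0.64), Hes1 (-0.34) and Sox1 (-0.69) were those that fell. The part of these shifts in the Fth1 result was not tested.

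The 250 bases before the ferritin starts are shown because the peaks of both genes lay around these starts: Fth1 (chr19:9980600-9985111) by the second of 2 RefSeq starts, on the plus strand, and Ftl1 (chr7:45457944-45459886) by its single start, on the minus strand.
Fth1, chr19:9982396-9982645: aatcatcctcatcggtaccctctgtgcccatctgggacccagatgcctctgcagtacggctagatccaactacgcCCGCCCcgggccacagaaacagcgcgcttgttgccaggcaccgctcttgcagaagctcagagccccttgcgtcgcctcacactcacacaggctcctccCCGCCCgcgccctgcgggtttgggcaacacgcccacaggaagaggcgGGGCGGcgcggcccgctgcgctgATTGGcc
Ftl1, chr7:45459887-45460136: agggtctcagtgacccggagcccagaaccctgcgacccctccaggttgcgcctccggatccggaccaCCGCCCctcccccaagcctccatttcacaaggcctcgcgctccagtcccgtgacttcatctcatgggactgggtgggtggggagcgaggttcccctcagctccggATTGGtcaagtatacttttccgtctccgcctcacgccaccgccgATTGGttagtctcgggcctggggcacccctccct
Both hold CCAAT boxes on the opposite strand, Fth1 one that begins 7 bases before the start and Ftl1 a pair at 78 and 34 bases. Fth1 also holds 3 GGGCGG boxes and Ftl1 one. The share of G and C is 66.8% and 65.2%.

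Ncoa4, the receptor that hands ferritin to autophagy so that its iron is released, was higher with crotonate and stayed in the control range with MS-275. It stood at 91.6, 92.8, 84.4 and 93.1 TPM in control libraries and at 122, 118, 108 and 117 TPM with crotonate, without overlap. With MS-275 it stood at 92.3, 90.4, 89.6 and 91.1 TPM, within the control range. The log2 difference was 0.36 (SE 0.04) with crotonate. With MS-275 it was 0.01 (95% interval -0.09 to 0.10, adjusted p 0.896 in limma), and its sign turned to -0.07 under median-of-ratios scaling. MS-275 lay 0.35 below crotonate (log2 difference -0.35, SE 0.04, adjusted p 3.5e-05 in limma). The gene spans chr14:32159879-32179855.

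Slc40a1 (chr1:45908070-45926532), the ferroportin through which iron leaves cells, was nearly silent in culture. It lay between 0.0504 and 0.263 TPM in control libraries, 0.113 and 0.596 TPM with crotonate, and 0.225 and 0.564 TPM with MS-275. It did not pass the filter of 1 TPM in 4 libraries and was not tested. The forebrain library held it at 6.69 TPM.

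Both regulatory proteins bind the same stem-loops, and their transcripts differed in response. Aco1 (IRP1, which is a cytosolic aconitase when it carries an iron-sulfur cluster) stood at 61.3, 66.1, 62.8 and 64.7 TPM in control libraries. It stood at 47.3, 48.4, 48.4 and 46.2 TPM with crotonate and at 44.8, 42.3, 39.9 and 42.3 TPM with MS-275. The 3 groups did not overlap, and both treatments lay below the control. On the log2 scale Aco1 differed by -0.41 (SE 0.04) with crotonate and -0.58 (SE 0.04, adjusted p 1.3e-07 in limma) with MS-275. MS-275 lay below crotonate by -0.17 (SE 0.04, adjusted p 0.00649 in limma), which became -0.09 (adjusted p 0.0689) under quantile normalisation. 

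Ireb2 (IRP2, which is degraded when iron is plentiful, chr9:54862658-54912534) stood at 57.3, 58.9, 56.0 and 57.6 TPM in control libraries and at 55.9, 55.0, 57.1 and 57.6 TPM with crotonate. With MS-275 it stood at 50.2, 55.1, 49.3 and 51.3 TPM, below the control, with library 2 just above the lowest crotonate library. The log2 difference was -0.03 (SE 0.04) with crotonate. With MS-275 it was -0.16 (SE 0.04) at an adjusted p of 0.00406 in limma, and -0.10 at 0.0536 under quantile normalisation. MS-275 minus crotonate was -0.13 at an adjusted p of 0.0178 in limma. That call was lost under median-of-ratios scaling (adjusted p 0.0754), quantile normalisation (0.228) and without MS-275 library 3 (0.0532).

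Aco1 (chr4:40143265-40199009) was the 1 member with a Kac peak in MS-275-treated NSPCs, and its promoter is shown for that peak, on the plus strand.
Aco1, chr4:40143015-40143264: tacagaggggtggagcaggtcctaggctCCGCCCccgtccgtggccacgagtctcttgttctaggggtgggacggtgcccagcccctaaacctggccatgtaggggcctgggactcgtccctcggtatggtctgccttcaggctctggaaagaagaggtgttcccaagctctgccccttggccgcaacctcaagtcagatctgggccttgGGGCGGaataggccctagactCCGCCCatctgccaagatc
It holds 3 GGGCGG boxes, beginning 222, 40 and 19 bases before the start. All lists but the Kcr list of MS-275 had a peak touching this stretch.

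Hmox1 (chr8:75093618-75100593), the inducible heme oxygenase that frees iron from heme, stood at 31.1, 29.7, 31.2 and 38.5 TPM in control libraries. With crotonate it stood at 33.1, 26.1, 31.0 and 33.1 TPM, and with MS-275 at 44.5, 37.2, 42.6 and 38.1 TPM. Control library 4 stood apart from the other 3 and reached into the MS-275 range. The log2 difference was -0.08 (SE 0.10) with crotonate and 0.31 (SE 0.10, adjusted p 0.0122 in limma) with MS-275. Without control library 4 the MS-275 difference was 0.39 (adjusted p 0.00209). MS-275 exceeded crotonate by 0.39 (SE 0.10, adjusted p 0.00505 in limma), and those ranges did not overlap.

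In counts, 3 of the 9 tested members (Steap3, Ftl1, Ncoa4) were higher with crotonate and 2 (Tfrc, Aco1) lower by the same limma threshold, where 32.3% of all tested genes were called higher and 15.9% lower. Nothing is read from that comparison, since the choice of Tfrc used it. With MS-275, of the 8 tested members other than Tfrc, 4 rose (Steap3, Fth1, Ftl1, Hmox1) and 3 fell (Slc11a2, Aco1, Ireb2), beside 37.4% and 27.6% of all tested genes. Between the treatments 2 were higher with MS-275 (Fth1, Hmox1) and 4 lower (Ftl1, Ncoa4, Aco1, Ireb2), beside 19.3% and 27.4%. By libraries that do not overlap, the same 3 and 2 members were apart with crotonate, beside 29.5% of tested genes higher and 14.7% lower. With MS-275 against the control 3 lay above (Steap3, Fth1, Ftl1) and 4 below (Tfrc, Slc11a2, Aco1, Ireb2), beside 33.6% and 24.9%. Against crotonate 3 lay above (Tfrc, Fth1, Hmox1) and 3 below (Ftl1, Ncoa4, Aco1), beside 18.3% and 25.0%. Such calls were so common over all genes that these counts do not set the members apart. The balance of calls over all genes shifted with scaling: with crotonate it was 4796 higher and 2356 lower as deposited, 3645 and 3996 after median-of-ratios scaling, which moved the median over all genes by -0.10, and 3091 and 3685 after quantile normalisation. With MS-275 it was 5561 higher and 4107 lower, and 4396 and 5064 after quantile normalisation. Median-of-ratios scaling brought the members called lower with crotonate from 2 to 5.

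**Figure D3:**
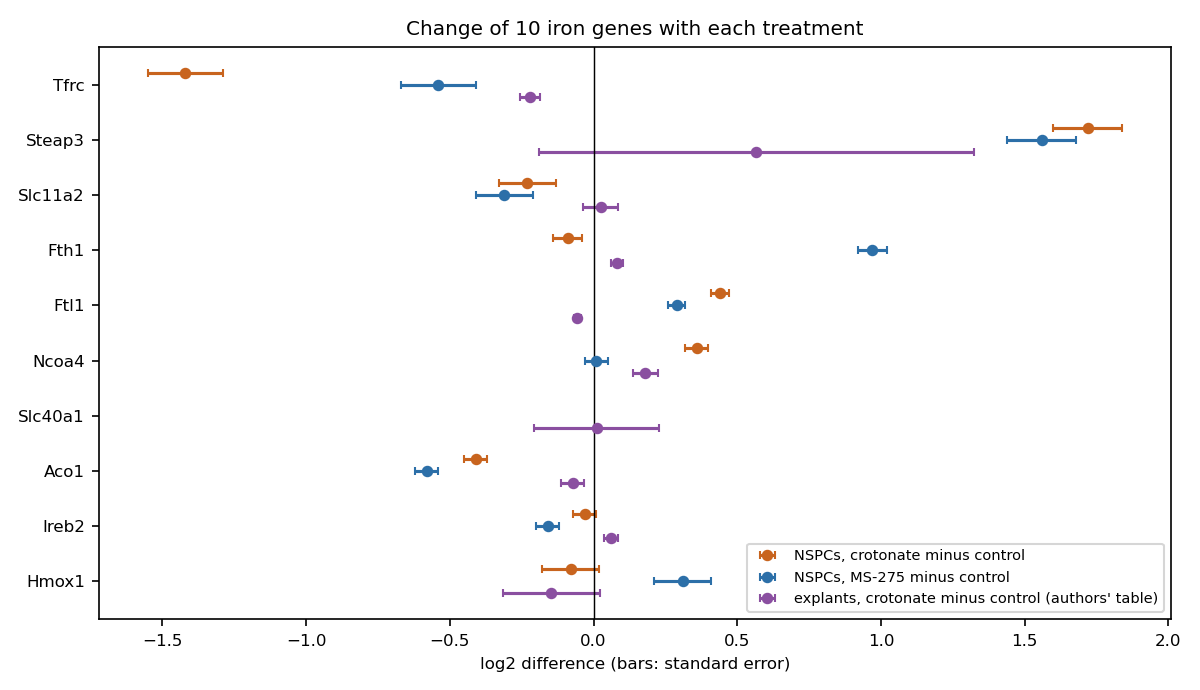
Log2 difference of each gene from its control (horizontal axis) with crotonate in NSPCs, MS-275 in NSPCs and crotonate in explants; dots are estimates and bars 1 standard error, from limma for NSPCs and from the authors' deposited table for explants. Tfrc lies left of 0 in all 3, Steap3 lies furthest right in NSPCs with a wide bar in explants, Fth1 moves right with MS-275 alone among the NSPC treatments, and Slc40a1 has no NSPC estimate.

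The explants, of another strain, share no library with the comparison that singled out Tfrc. Tfrc was lower with crotonate there too: the authors' deposited table gives a log2 fold change of -0.22 (SE 0.04), a fold of 0.858, at an adjusted p of 2.2e-08 from DESeq2 and a mean normalised count of 2209. In the same table Ncoa4 was higher, at 0.18 (SE 0.04, adjusted p 0.000296), and so was Fth1, at 0.08 (SE 0.02, adjusted p 0.00101). Ftl1 was lower in the authors' deposited table, at -0.06 (SE 0.01, adjusted p 0.000213), against a log2 difference of 0.44 in NSPCs; the difference between the systems was not tested. Of the 9 members with an adjusted p in the authors' deposited table these 4 passed, 2 in each direction, where 10.5% of 14498 genes were called higher and 9.76% lower.

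The others did not pass in explants. The authors' deposited table lists Aco1 at -0.07 (adjusted p 0.193), Ireb2 at 0.06 (adjusted p 0.0586), Slc11a2 at 0.02 (adjusted p 0.841), Hmox1 at -0.15 (SE 0.17, adjusted p 0.62) and Slc40a1 at 0.01 (SE 0.22, adjusted p 0.98). Steap3, the member with the largest rise in culture, had a mean normalised count of only 7.04 in the authors' deposited table, a log2 fold change of 0.57 (SE 0.76) and no adjusted p. Markers moved in the explants as well: by the authors' adjusted p, 5 of 8 erythroid, 8 of 12 neural stem and progenitor and 9 of 10 proliferation genes were lower with crotonate. Of the stem and progenitor genes 1 was higher. Of 8 forebrain markers 6 were lower, and of 8 neuron markers 3 were higher and 3 lower. Erythroid precursors and dividing cells are rich in Tfrc, and the part of these shifts in its fall was not tested.

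The forebrain library gives 1 value per gene and no test. All 10 members lay outside the range of the 4 control NSPC libraries. By at least 2-fold on the log2(TPM + 1) scale 1 was higher, Slc40a1 by 2.74, and 2 were lower, Hmox1 at 7.73 TPM by -1.94 and Fth1 at 576 TPM by -1.17, where 24.8% of 15817 genes were higher and 10.6% lower by that rule. Ftl1 at 2608 TPM, Ireb2 at 86.1 TPM and Slc11a2 at 30.3 TPM were above the control range by less than that. Tfrc at 61.0 TPM, Ncoa4 at 60.9 TPM and Aco1 at 39.6 TPM were below it by less than that. Steap3 at 0.654 TPM was 0.360 times the control mean, and it missed the 2-fold limit only through the pseudocount: its log2 difference was -0.76 with a pseudocount of 1 and -1.33 with 0.1, which would make it the third lower member. The size for Slc40a1 also rests on it, at 4.83 with 0.1. Median-of-ratios scaling brought the differences of Slc11a2, Ftl1 and Ireb2 from 0.40, 0.57 and 0.58 to 0.10, 0.25 and 0.27, and those of Tfrc and Ncoa4 from -0.47 and -0.56 to -0.78 and -0.87. The tissue and the cultures differed widely in cell markers. Neuron markers summed to 3300 TPM in the forebrain and 318 to 340 TPM in the control, neural stem and progenitor markers to 2647 TPM and 9745 to 10283 TPM, and oligodendrocyte-lineage markers to 56.6 TPM and 1686 to 1885 TPM. Beside the erythroid sum given above, microglia and macrophage markers summed to 37.6 TPM in the forebrain and 4.70 to 5.71 TPM in the control, and endothelial markers to 61.2 TPM and 1.38 to 1.76 TPM. The part of these shifts in the differences of the iron genes was not tested.

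Peaks were counted where they lay in a gene or within 1 kb of it. In control NSPCs 9 of the 10 members had a Kcr peak and 8 a Kac peak, beside 64.6% and 73.0% of 13912 tested genes with a position. After crotonate 9 had a Kcr peak and 9 a Kac peak, beside 74.5% and 70.2%. After MS-275 only Steap3 and Ftl1 had a Kcr peak and only Aco1 a Kac peak, beside 23.4% and 25.3%, in lists of 5845 and 7555 peaks against 17669 and 23427 in the control. Each list is 1 library, the NSPC lists hold positions alone, and list length alone can move such counts, so no gain or loss is drawn from them.

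At Tfrc the control lists had 2 Kcr and 2 Kac peaks, and each Kcr peak overlapped a Kac peak. The crotonate lists had 2 Kcr and 3 Kac peaks at the same gene, and again each Kcr peak overlapped a Kac peak. The Kac peak from 32608297 to 32608565 overlapped no Kcr peak. Tfrc RNA with crotonate was 0.362 times that of the control, and a link to these peaks was not tested. The Kcr peak over the second start ran from 32609037 to 32609514 in the control list and from 32609030 to 32609435 in the crotonate list. At Slc11a2 only control lists had an NSPC peak, 1 of each mark, with centres 1449 and 1442 bp inside one end of the gene. At Slc40a1 only the crotonate lists had any, 2 Kcr and 1 Kac. Fth1, at 1.96 times the control RNA level with MS-275, had no peak in either MS-275 list.

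In the forebrain all 10 members had an H3K9ac peak, beside 88.2% of genes, and 7 an H3K9cr peak, beside 78.1%; Steap3, Slc40a1 and Hmox1 had none of H3K9cr. The fold enrichment at the summit, which is the authors' value, ranked the H3K9ac peaks from Ireb2 at 99.9 through Ftl1 at 53.1, Ncoa4 at 52.3, Fth1 at 34.9, Aco1 at 32.0, Slc11a2 at 31.5, Tfrc at 25.4 and Hmox1 at 7.76 to Slc40a1 at 4.37 and Steap3 at 3.55, beside a list median of 12.6. The 3 members without an H3K9cr peak were those with the lowest H3K9ac enrichment, and also the 3 with the lowest RNA in the forebrain library. Among the H3K9cr peaks Ireb2 was again highest, at 44.6, and Slc11a2 lowest, at 10.2, beside a list median of 8.38.

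**Figure D4:**
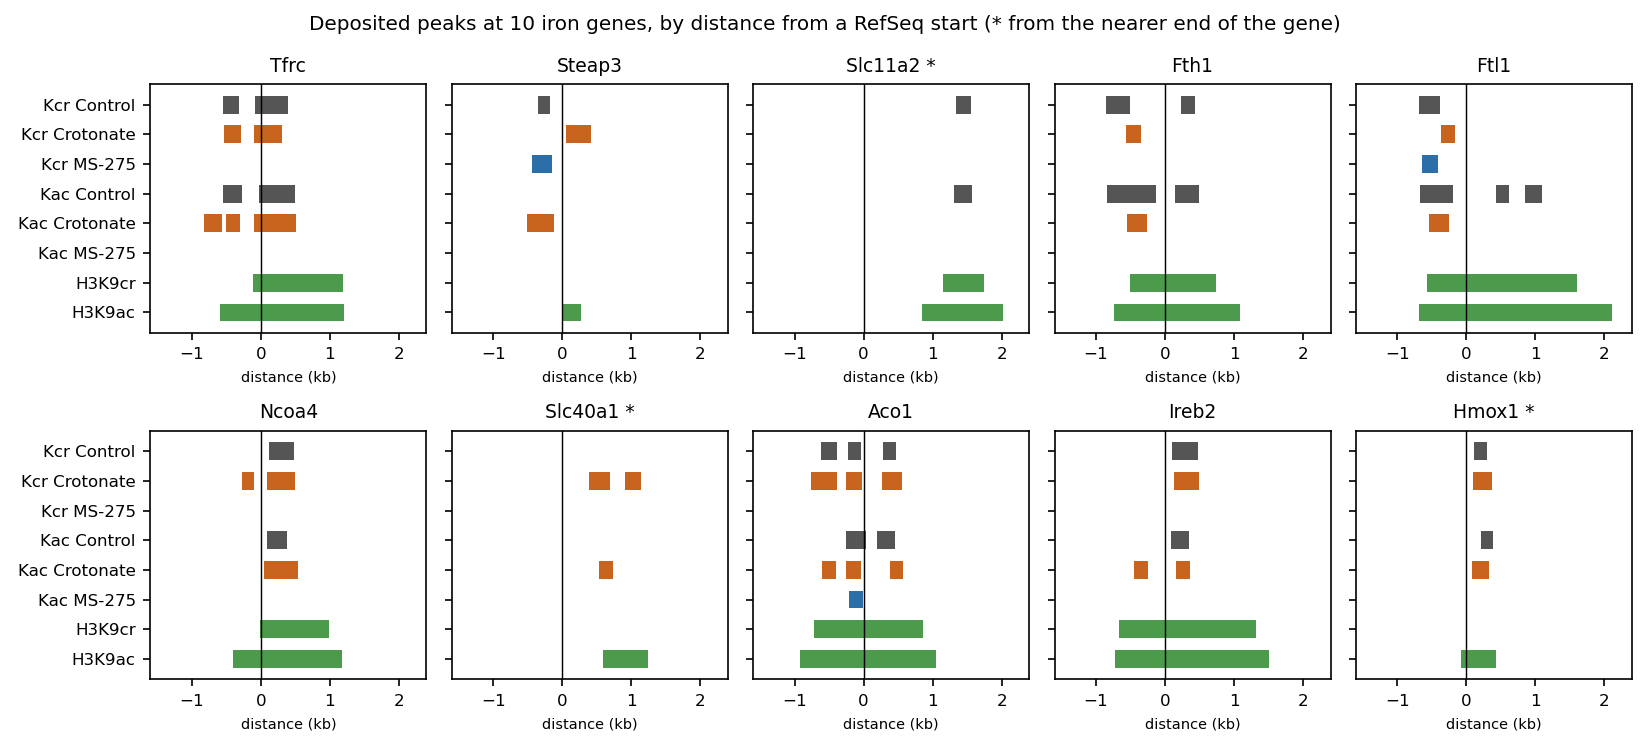
Deposited peaks at each gene (bars) in the 8 lists (rows), by distance in kb from a RefSeq start (horizontal axis, positive into the gene; for Tfrc the second start, for Steap3 the internal one), or, marked with an asterisk, from the nearer end of the gene where no RefSeq start was at hand. Control and crotonate rows are filled for most genes, the MS-275 rows hold bars at Steap3, Ftl1 and Aco1 alone, and 1 further H3K9ac peak of Ncoa4 lies beyond the frame.

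Promoter entries were found for 7 of the 10 members, with 14 starts. Motifs were searched in the 300 bases around each start, 250 before and 50 after: TATAAA (present in 13.6% of all RefSeq promoters), CCAAT (37.4%), the Sp1 box GGGCGG (35.7%), the E-box CACGTG (7.15%), the AP-1 site TGACTCA (5.20%), the antioxidant response core TGAC, 3 bases of any kind, GC (12.4%), the hypoxia response core ACGTG (19.6%, not capitalised in the sequences), all on both strands, and the loop CAGTGN of the iron-responsive element on the plus strand (34.6%, not capitalised). The hypoxia core lies within the E-box. GGGCGG was found by at least 1 start of Tfrc, Steap3, Fth1, Ftl1, Aco1, Ireb2 and Ncoa4. Other starts of Tfrc, Steap3, Fth1 and Ncoa4 had none, and the shares above are per start, so genes with several starts have more chances of a match. By at least 1 start TATAAA was found for Ftl1, Ncoa4 and Fth1, and CCAAT for Steap3, Ftl1, Tfrc and Fth1. The antioxidant core was found for Ncoa4, the hypoxia core for Tfrc and Ncoa4, and CAGTGN for Steap3 and Ftl1. For CAGTGN the plus strand means the strand of the gene. The Ftl1 match begins 243 bases before its start, and Steap3 matches begin 222 and 193 bases before theirs. A further Steap3 match begins 8 bases after another start. The element works in mRNA, so its presence or absence at a gene is not read from these windows. The E-box and the AP-1 site were found at no member's start, which says only that these letters are not in these windows.

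The other genes of iron handling were taken from lists. Of 10 tested genes of iron uptake 6 rose and 0 fell with crotonate (median log2 difference 0.73), and 9 rose and 0 fell with MS-275 (median 0.84), beside medians over all genes of 0.09 and 0.08. Among them Slc39a8 and Lrp2 stayed under 1 TPM in every control library (highest 0.443 and 0.145 TPM). Both passed the filter only through treated libraries. Steap1, at 0.609 TPM in its lowest control library, also needed treated libraries to pass. This favours rises, so nothing is read from the part of Slc39a8, Lrp2 and Steap1 in these counts and medians. Over all tested genes 32.3% were called higher and 15.9% lower with crotonate, and 37.4% higher and 27.6% lower with MS-275, and the list counts that follow stand beside these shares. Markers of other cells moved as well: 6 of 7 neuron markers were higher and 1, Map2, lower with crotonate, and 5 were higher with MS-275 (medians 0.69 and 1.03), and 4 and 3 of 5 astrocyte markers (medians 0.65 and 1.01). The neuron marker Stmn2 also stayed under 1 TPM in every control library (highest 0.322 TPM) and passed the filter only through treated libraries. Dcx, at 0.971 TPM in its lowest control library, needed treated libraries to pass as well. Summed neuron markers, mostly Map2, were at 318 to 340 TPM in the control. They were at 287 to 316 TPM with crotonate and 384 to 403 TPM with MS-275, so sum and counts differ in direction with crotonate. The part of these markers in the counts of iron genes was not tested. Steap1, a metalloreductase related to Steap3, went from 1.88 ± 0.852 TPM to 10.3 ± 1.02 with crotonate and 10.7 ± 0.734 with MS-275 (SD, n = 4). The log2 difference with MS-275 was 2.09, given as a description because of the filter. Slc39a8, a metal transporter that can carry iron, went from 0.298 TPM to 3.42 TPM with each compound, likewise a description. The fall of Tfrc with crotonate is the one by which it was chosen, so it is not set against the rises of these genes. In explants 1 of 9 uptake genes was lower and none higher by DESeq2 in the authors' deposited table. At an unadjusted p under 0.05 the counts of this list were the same, 6 and 0, 9 and 0, and in explants 0 and 1.

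Of 7 tested genes that control the regulatory proteins and ferritin, 5 fell and 0 rose with crotonate (median -0.16), and 6 fell and 1 rose with MS-275 (median -0.36), beside 15.9% and 27.6% of all genes lower. Cul1, a scaffold of the ubiquitin ligase that degrades IRP2, fell by 0.78 on the log2 scale with MS-275 (adjusted p 1.7e-07 in limma), from 107 TPM to 62.0 TPM. Pcbp1, a chaperone that delivers iron to ferritin, fell by 0.65 (adjusted p 2.3e-08 in limma), from 277 TPM to 176 TPM. At an unadjusted p under 0.05 the counts were again 0 and 5 with crotonate. In explants the authors' deposited table has 3 of 7 of these genes higher by DESeq2 and 0 lower (4 and 0 at an unadjusted p under 0.05), Cul1 at 0.07 (adjusted p 0.0371).

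Among 3 tested genes of iron export, 1 rose and 1 fell with crotonate (median 0.12) and 2 rose and 1 fell with MS-275 (median 0.63). Cp, the ferroxidase ceruloplasmin, went from 13.2 ± 1.12 TPM to 41.8 ± 4.09 TPM with MS-275 (log2 difference 1.59, adjusted p 2.5e-08 in limma) and stood at 14.4 ± 2.00 TPM with crotonate. This put Cp beside Fth1 as a gene that differed between the compounds, by 1.47 (adjusted p 2.6e-07 in limma). Of 4 other tested genes with an iron-responsive element, 1 rose and 1 fell with crotonate (median 0.01) and 1 rose and 3 fell with MS-275 (median -0.30). Epas1, the hypoxia-inducible factor HIF-2α, was the one that rose, from 4.56 TPM to 13.6 TPM with crotonate and 16.8 TPM with MS-275 (log2 difference 1.68, adjusted p 6.9e-10 in limma).

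Of 11 genes of heme synthesis 4 rose and 2 fell with crotonate (median 0.18), and 7 rose and 2 fell with MS-275 (median 0.25), beside 32.3% and 37.4% of all genes higher, so that the crotonate count is near the background. Uros, a uroporphyrinogen synthase, rose by 1.10 on the log2 scale with MS-275 (adjusted p 1.2e-05 in limma). Of the 3 other heme breakdown genes all 3 rose with crotonate (median 0.56) and 2 with MS-275 (median 0.21). Blvrb, a biliverdin reductase downstream of Hmox1, rose by 1.19 with crotonate and by 1.16 with MS-275 (adjusted p 9.9e-08 in limma). Of 20 genes of mitochondrial iron and iron-sulfur clusters 6 rose and 5 fell with crotonate (median 0.02), and 3 rose and 9 fell with MS-275 (median -0.07). Glrx5, a glutaredoxin that passes on iron-sulfur clusters, fell by 0.57 on the log2 scale with MS-275 (adjusted p 7.0e-05 in limma), from 44.1 TPM to 29.5 TPM.

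Of 10 genes of the NRF2 and BACH1 axis, which controls Hmox1 and the ferritins in many cells, 5 rose and 2 fell with crotonate (median 0.24), and 4 rose and 1 fell with MS-275 (median 0.03). With 32.3% and 37.4% of all genes called higher, the MS-275 count is at the background. Nqo1, a standard NRF2 target, went from 8.84 ± 1.37 TPM to 17.2 ± 2.28 TPM with crotonate and 22.5 ± 2.57 TPM with MS-275 (adjusted p 1.5e-06 in limma). Srxn1, another such target, went from 23.4 ± 2.10 TPM to 43.5 ± 3.09 TPM and 47.1 ± 6.17 TPM. Nqo1, Srxn1, Nfe2l2 and Txnrd1 rose with both compounds. Gclc rose with crotonate alone (log2 differences 0.48 with crotonate and 0.04 with MS-275). Gclm (0.03 and 0.01), Slc7a11 (0.12 and -0.02) and Keap1 passed the test with neither. Hmox1 passed the test with MS-275 and had a crotonate difference of -0.08, so the genes of this axis did not share 1 pattern.

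**Figure D5:**
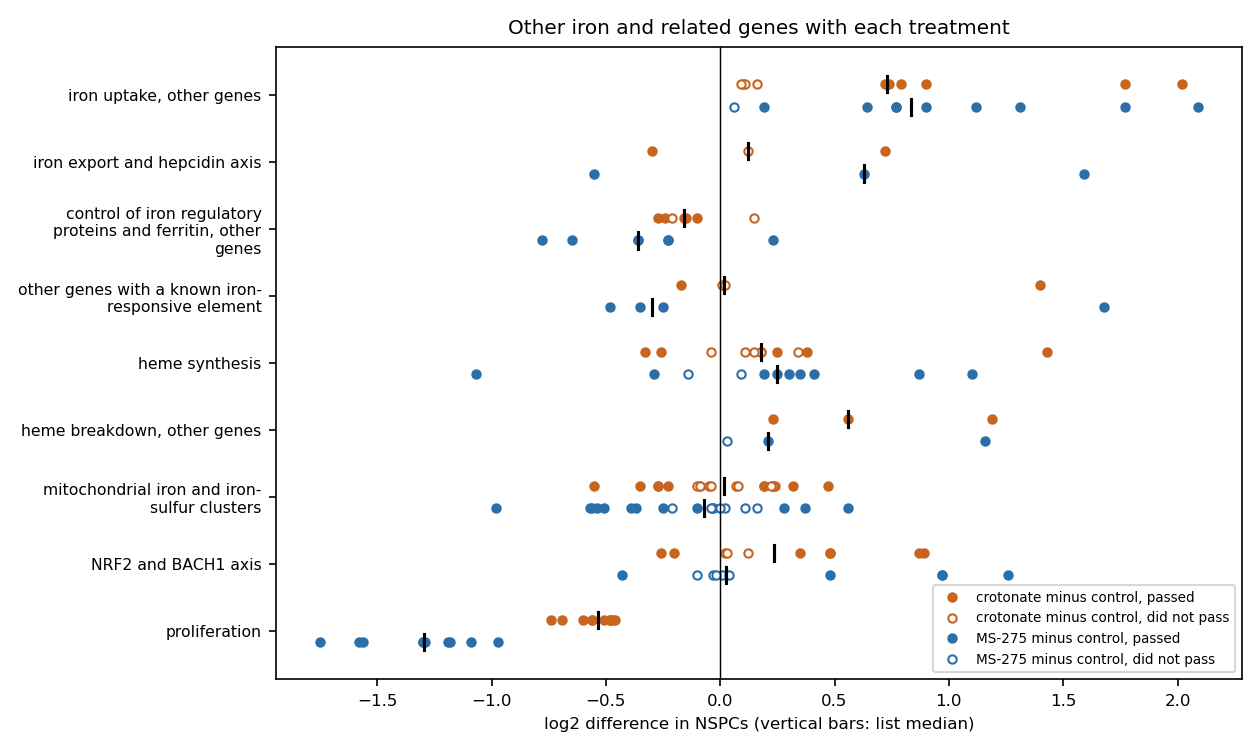
Log2 differences in NSPCs (horizontal axis) of the tested genes of 9 lists (rows), crotonate minus control above and MS-275 minus control below; filled dots passed the limma threshold, open dots did not, and black bars are list medians. The other uptake genes lie at or right of 0 (medians 0.73 and 0.84), and the proliferation genes left of it (medians -0.53 and -1.29). The uptake genes Slc39a8, Lrp2 and Steap1 passed the filter only with the help of treated libraries.

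Dividing cells need iron, so proliferation genes were set beside Tfrc. All 10 fell with crotonate (median log2 difference -0.53) and all 10 with MS-275 (median -1.29), and all 10 were lower with MS-275 than with crotonate (median -0.77), beside 15.9%, 27.6% and 27.4% of all genes lower. Their summed level was 2330 to 2489 TPM in the control, 1529 to 1761 TPM with crotonate and 954 to 1083 TPM with MS-275. Tfrc was lowest with crotonate, which the choice of Tfrc fixed, so its order is not set against theirs, and the part of proliferation in its fall was not tested. Ccnb1, a mitotic cyclin, fell by 1.75 with MS-275 (adjusted p 1.9e-09 in limma).

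The genes whose profile over the 12 NSPC libraries was most like that of Tfrc, among 10538 genes with a mean of at least 5 TPM, were Dpysl2 (Pearson r 0.960), Ski (0.958), Cct8 (0.955), Sqle (0.953) and Enoph1 (0.952). Sqle, an enzyme of sterol synthesis, went from 206 TPM in the control to 137 TPM with crotonate and 168 TPM with MS-275. For Hmox1 they were Notch1 (0.925), Atxn7l3 (0.919), Nav2 (0.917), Sel1l (0.908) and Med13l (0.899). The 12 points are 3 groups of 4 libraries that share a treatment, so these values are a description.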

How the data were processed

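RNA was measured in 12 NSPC, 6 explant and 1 forebrain libraries and histone marks in 8 ChIP libraries. Per the submitters' processing notes, Salmon 1.0.0, DESeq2 1.26.0, Bowtie2 2.3.5.1, MACS2 2.2.5 and the build GRCm38 were used; which step used which is not recorded there. The authors deposited TPM for NSPCs and forebrain without read counts, so depth and counting error are unknown. For the explants they deposited 1 comparison, whose direction is given by its name: a signal column (mean normalised count), a log2 fold change with its SE, a score (the statistic), a p-value and an adjusted p-value. The forebrain peak lists, per the file headers or format, hold a score, a ratio (fold enrichment) and −log10 p and q as deposited by the authors; NSPC lists hold positions only.

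The 10 members and the gene and marker lists were chosen with earlier results of these data known. TPM was taken as log2(TPM + 1), where folds of low genes are understated. The 14857 genes that reached 1 TPM in 4 or more NSPC libraries were fitted with limma 3.58.1 (R 4.3.3; trend, 3 groups in 1 fit, two-sided) and adjusted by Benjamini-Hochberg over all of them, threshold 0.05. On data simulated for MS-275 against control, with 14857 genes, limma recovered 36% of genes changed 1.25-fold, 81% changed 2-fold and 97% changed 4-fold, and called 10 of 14657 unchanged genes. Only 200 genes were changed there, with noise independent between libraries. In the data 5561 genes were called higher and 4107 lower with MS-275, so these rates need not carry over.

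All members were described. From each list the 2 tested genes called with the largest MS-275 difference were named, except a few not reported here, and for Tfrc and Hmox1 the 5 most correlated genes without predicted ones. Same-numbered libraries correlated at 0.119 to 0.241 after removal of group means (12 pairs, against -0.197 to 0.0993 for other pairs). By these values replicate numbers seem to pair the samples, though the labels do not say so. The SE and p-values from limma in the Results leave this pairing out, and a fit with the replicate block was an alternative. Replicates of separate cultures are not described further, so p-values measure the spread between these libraries. A peak counted if it overlapped the gene, extended by 1 kb at each end, by at least 1 bp; RefSeq positions (GRCm38.p6) were found for 13912 tested genes (93.6%). Input, IgG and methylation samples were not used here. Tables and figures were made in Python 3.11.15 (matplotlib 3.10.9, pandas 2.3.3).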

Additional observations from a re-analysis of the deposited data

Results flagged for a closer look

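Hmox1 in control library 4, at 38.5 TPM, lay far from the other 3 control libraries at 29.7 to 31.2 TPM: its gap to the nearest was 0.831 of the group's range. It was 1 of 33 groups of 4 libraries checked so, and chance gives about 1 in 20.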

How the results depend on the processing

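Each MS-275 result of the 8 tested members other than Tfrc was recomputed under 15 alternatives: another pseudocount (0.1), no filter, no trend, median-of-ratios scaling, quantile normalisation, the replicate block, only the 2 groups compared, and without each of their 8 libraries. Of 120 recomputed values against the control 115 kept direction and side of the threshold, 2 lost the call and 3 turned sign. Against crotonate these were 115, 4 and 1 of 120. The sign turned for Ncoa4 against the control (-0.07 with median-of-ratios scaling, -0.03 without control library 3, -2e-04 without MS-275 library 1; -0.03 to 0.02 without single libraries) and for Slc11a2 against crotonate (0.03 without crotonate library 3; -0.14 to 0.03 without single libraries). Median-of-ratios scaling gave 5 members and 3996 genes lower with crotonate; quantile normalisation gave 3091 genes higher and 3685 lower there, and 2 members lower with MS-275 than with crotonate; the cause was not tested. With the replicate block, which takes same-numbered libraries as pairs, 4966 genes were higher and 2484 lower with crotonate, and 5657 and 4216 with MS-275, and no call of a member changed. Without single libraries the Tfrc difference ranged from -1.55 to -1.31 (crotonate) and -0.67 to -0.43 (MS-275, both against the control). The ferritin ratio difference, an alternative added after seeing the data, stayed at 0.66 to 0.70 against the control and 1.18 to 1.25 against crotonate (log2) without single libraries. When a peak had to touch the gene itself, 1 member had a Kcr and 0 a Kac peak after MS-275. Forebrain differences kept their sign under the other pseudocount, under median-of-ratios scaling and without each control library, but not their size: over these 6 alternatives they ranged from 2.53 to 4.83 for Slc40a1, -1.33 to -0.71 for Steap3, 0.10 to 0.41 for Slc11a2, 0.25 to 0.57 for Ftl1, 0.27 to 0.59 for Ireb2 and -0.78 to -0.36 for Tfrc. Explant calls of members were the same after adjustment over every gene with a p.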
